A study of Homo sapiens with 4 samples.

Results

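The mitochondrial ribosomal protein genes are the nuclear genes for the protein subunits of the ribosome inside mitochondria. They were taken here as every gene name in the deposited table that begins with MRPL or MRPS followed by a digit. The rule found 78 genes among 11213 gene names, of which 49 carry large-subunit names (MRPL) and 29 carry small-subunit names (MRPS). Their levels were compared between 2 shPHF8 libraries and 2 shControl libraries of K562, an established human line of chronic myelogenous leukaemia cells. In both groups the cells had been transduced with a lentivirus carrying a short hairpin RNA, in polybrene, and selected with puromycin at 2 ug/ml after 72 h. The shPHF8 hairpin is directed at PHF8, a histone lysine demethylase, and shControl is the control hairpin. The labels number the libraries 1 and 2 without saying whether these are separate transductions, so p-values measure the spread between libraries, which may be technical. Nor do they say whether shPHF8 1 and 2 carry the same hairpin.

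Mitochondrial ribosomes make the small set of respiratory chain subunits that mitochondrial DNA encodes. Their ribosomal RNAs come from mitochondrial DNA, while all of their proteins are made in the cytosol from nuclear genes and imported. Many of the proteins descend from bacterial ribosomal proteins, and the rest were added in mitochondria and have no bacterial counterpart. Leukaemia cells that rely on respiration depend on this translation system.

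PHF8 stood at 6.06 and 6.42 TPM in the shPHF8 libraries, against 25.9 and 22.5 TPM in the shControl libraries. TPM is transcript abundance per length, expressed as a share with an equal total for each library. The log2 fold change of PHF8 was -1.80 ± 0.16 (SE, n = 2 libraries a group, limma on log2(TPM + 1)), with a Benjamini-Hochberg adjusted p of 0.0643 over 10972 genes. All 11 erythroid markers of K562 were present, and their summed level was 14255 and 13612 TPM in shPHF8 libraries, against 9184 and 9806 TPM in shControl libraries. Of these markers, 8 were higher in both shPHF8 libraries than in both shControl libraries and 2 were lower in both, against 26.0% and 29.3% of all genes tested. T-cell and endothelial markers had no row in the table, while COL1A1, a fibroblast marker, did not exceed 1.63 TPM in any library. The epithelial keratin KRT8 was at 171 and 170 TPM in shPHF8 libraries, against 268 and 305 TPM in shControl libraries, and with EPCAM the epithelial sum was 319 and 316 TPM, against 437 and 472 TPM. The part of these marker differences in the results below was not tested.

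Promoters of the members are shown first, because short motifs near their starts are a feature that the choice of genes did not use. RefSeq windows of 300 bases (250 before to 50 after the start, GRCh38.p14) were matched by symbol for 69 of the 78 members. A YY1-type motif, AAGATGGC on either strand, was present for 21 of the 69 members (30.4%). The same letters were present for 615 of 8515 tested genes (7.22%), for 8 of 70 cytosolic ribosomal protein genes (11.4%) and in 2.89% of all 35116 windows. The match began within 50 bases of the start in 17 of the 21 members, against 447 of the 615 tested genes with a match, and downstream of the start in 16 members. In 13 of the 21 (61.9%) the ATG inside the match is an annotated start codon in GENCODE release 29, against 246 of 615 tested genes with a match (40.0%). The motif therefore often overlaps the first codons of the protein in these genes. An ETS-type motif, CCGGAAG on either strand, was present for 30 of 69 members (43.5%), against 24.6% of tested genes and 10.3% of all windows. An NRF1-type motif, GCATGCGC on either strand, was present for 6 members (8.70%), against 6.95% of tested genes and 3.05% of all windows. A match is a description of letters and is neither a binding site nor a cause.

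The stretches around the YY1-type match are given for those holding one among the members with the 5 smallest p in each direction of each subunit, 5′ to 3′ on the gene's strand, with the match in capitals (GCCATCTT is the same motif on the other strand). The 5 genes that stood higher in both shPHF8 libraries come first, and MRPL52, which has 2 matches and stood lower, comes last.
MRPL36, chr5:1799855-1799882, minus strand: cccccccgccGCCATCTTccttcctggc
MRPL49, chr11:65122334-65122361, plus strand: gtagcaggtaAAGATGGCagctaccatg
MRPL42, chr12:93467512-93467539, plus strand: ggattgaaacAAGATGGCgggttcgtgg
MRPS7, chr17:75261888-75261915, plus strand: gtggccagccAAGATGGCtgcccccgca
MRPS10, chr6:42217835-42217862, minus strand: cgggaccggcAAGATGGCggcgcggaca
MRPL52 upstream match, chr14:22829779-22829806, plus strand: acgatgacccAAGATGGCggagccgtga
MRPL52 second match, chr14:22829813-22829840, plus strand: acccagattcAAGATGGCgacttcctgc
In MRPL49, MRPS7 and MRPS10 the ATG of the match is an annotated start codon, while in MRPL36 the match lies upstream of the start in the other orientation. Matches were found among members of both directions. Of the 16 matched members above both shControl libraries, 6 had it (37.5%), as did 5 of the 19 below (26.3%) and 10 of the 34 with overlapping groups (29.4%). The ETS-type motif was present in 6 of the 16 above (37.5%), 11 of the 19 below (57.9%) and 13 of the 34 others (38.2%), and the NRF1-type motif in 0, 3 and 3. These differences were not tested.

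Whole windows are given for the members with the smallest p in each direction, MRPL36 (higher) and MRPL48 (lower). Capitals mark the YY1-type match in MRPL36 and the ETS-type match, on the other strand, in MRPL48.
MRPL36, chr5:1799788-1800087, minus strand: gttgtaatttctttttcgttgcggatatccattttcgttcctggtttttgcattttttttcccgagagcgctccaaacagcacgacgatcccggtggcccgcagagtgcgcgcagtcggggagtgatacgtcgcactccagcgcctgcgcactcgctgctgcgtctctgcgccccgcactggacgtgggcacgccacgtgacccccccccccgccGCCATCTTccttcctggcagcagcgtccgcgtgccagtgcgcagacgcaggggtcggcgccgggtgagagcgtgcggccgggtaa
MRPL48, chr11:73787624-73787923, plus strand: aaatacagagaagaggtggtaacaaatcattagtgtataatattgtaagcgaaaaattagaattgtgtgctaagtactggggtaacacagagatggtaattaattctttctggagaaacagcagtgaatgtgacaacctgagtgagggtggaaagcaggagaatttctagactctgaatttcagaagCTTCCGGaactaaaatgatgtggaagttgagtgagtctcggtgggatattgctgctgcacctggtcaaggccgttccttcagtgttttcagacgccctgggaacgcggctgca
Each gene has 1 such window in the table and 1 match to the 3 motifs.

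All 78 members were expressed in every library at levels well above the filter of a mean of 1 TPM, and none lay near it. Their mean levels over the 4 libraries had a median of 108 TPM, against 29.5 TPM over all genes tested. Middle values were alike for both subunits, with a median of 118 TPM for large-subunit names and 106 TPM for small-subunit names. The range was wide, with mean levels between 12.8 and 311 TPM, a 24.3-fold span among proteins that each ribosome holds mostly in single copy. The quartiles were closer, at 56.9 and 159 TPM. In the order of levels, 74 of the 77 neighbouring pairs had overlapping ranges over the 4 libraries of both groups. Sorting on these same values sets near-equal genes side by side, so this count carries little weight.

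At the top of the large subunit stood MRPL16, a protein with a bacterial counterpart, with 295 and 296 TPM in shPHF8 libraries, against 326 and 329 TPM in shControl libraries. MRPL20, also of bacterial descent, had 268 and 265 TPM in shPHF8 libraries, against 248 and 264 TPM in shControl libraries. MRPL37, a protein added in mitochondria, had 271 and 273 TPM in shPHF8 libraries, against 248 and 232 TPM in shControl libraries. These 3 genes stayed within a narrow band in all 4 libraries. MRPL15, of bacterial descent, had 241 and 242 TPM in shPHF8 libraries, against 251 and 266 TPM in shControl libraries. In the small subunit MRPS18B led, with 258 and 224 TPM in shPHF8 libraries, against 175 and 267 TPM in shControl libraries, so the shControl pair spanned the shPHF8 pair. MRPS35, a mitochondria-specific protein, had 205 and 212 TPM in shPHF8 libraries, against 228 and 198 TPM in shControl libraries, again with overlap.

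The lowest large-subunit gene was MRPL43, with 22.5 and 29.3 TPM in shPHF8 libraries, against 18.7 and 8.82 TPM in shControl libraries. Its groups did not overlap, but its shControl libraries differed from each other by 2.12-fold, and its exons overlap TWNK and SEMA4G on the opposite strand. MRPL53 had 26.6 and 26.6 TPM in shPHF8 libraries, against 26.7 and 29.98 TPM in shControl libraries. The lowest small-subunit gene was MRPS11, the counterpart of a bacterial protein of the subunit's platform, described with its fold change below. MRPS23 had 39.2 and 40.5 TPM in shPHF8 libraries, against 40.8 and 43.8 TPM in shControl libraries. MRPS27, which contains pentatricopeptide repeats, had 40.6 and 43.8 TPM in shPHF8 libraries, against 36.4 and 46.3 TPM in shControl libraries. Apart from MRPL43 and MRPS11, the groups of these low genes overlapped or nearly met.

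**Figure D1:**
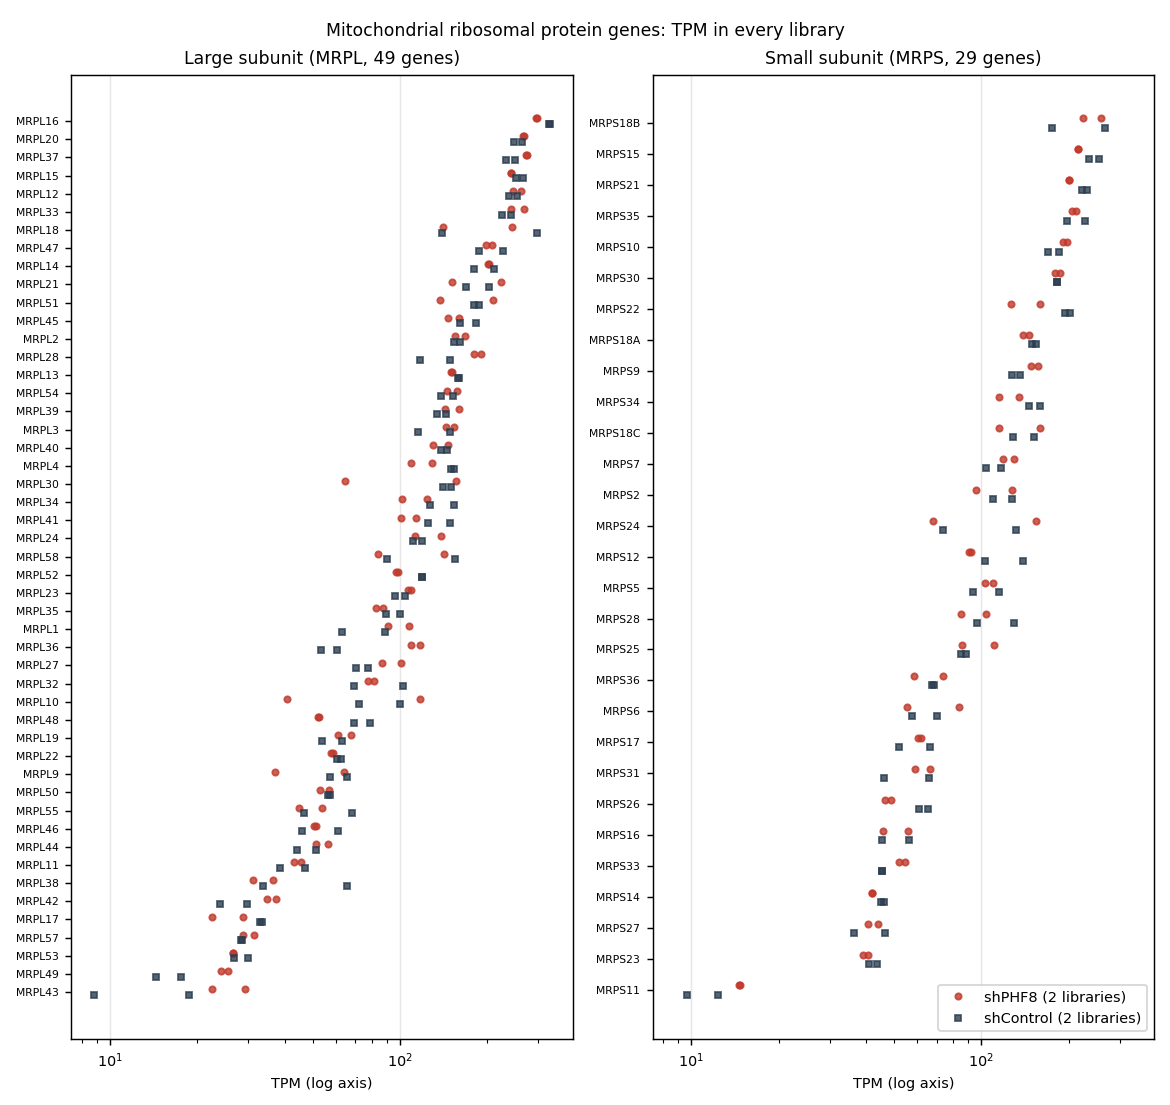
TPM of each of the 49 MRPL genes (left) and 29 MRPS genes (right) on a log axis, ordered by their sum over the libraries. Circles are the 2 shPHF8 libraries and squares the 2 shControl libraries; levels span 24.3-fold between genes, while most genes have both groups at nearly the same place.

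A few members do not sit where their names place them. MRPS18A, MRPS18B and MRPS18C are paralogues of 1 bacterial protein, and only MRPS18C takes its place in the small subunit. MRPS18A and MRPS30 are found in the large subunit in structures of the human mitochondrial ribosome, and MRPS36 is now known as a component of the 2-oxoglutarate dehydrogenase complex. MRPS18A had 146 and 139 TPM in shPHF8 libraries, against 149 and 154 TPM in shControl libraries. MRPS18C had 115 and 159 TPM in shPHF8 libraries, against 128 and 151 TPM in shControl libraries. Only MRPS18A of the 3 paralogues had groups that did not overlap, and the margin was under 3 TPM. MRPS30 had 180 and 186 TPM in shPHF8 libraries, against 183 and 182 TPM in shControl libraries. MRPS36 had 73.8 and 58.4 TPM in shPHF8 libraries, against 67.4 and 68.7 TPM in shControl libraries. The shControl pair lay inside the shPHF8 pair for both genes.

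The total for the large subunit was 6039 and 5773 TPM in shPHF8 libraries, against 5732 and 6158 TPM in shControl libraries. The ratio of group means was 0.993, and the shPHF8 sums lay within the shControl range. The total for the small subunit was 3178 and 3283 TPM in shPHF8 libraries, against 3266 and 3417 TPM in shControl libraries, a ratio of 0.967 with overlapping groups. Both subunits together made up 0.922% and 0.906% of all TPM in shPHF8 libraries, against 0.900% and 0.957% in shControl libraries. The large subunit's sum was 1.90 and 1.76 times the small subunit's in shPHF8 libraries, against 1.76 and 1.80 times in shControl libraries. Placing MRPS18A and MRPS30 by structure and leaving out MRPS36 gave ratios of 2.29 and 2.10 in shPHF8 libraries, against 2.11 and 2.16 in shControl libraries. The balance between subunits thus overlapped between groups under both assignments.

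**Figure D2:**
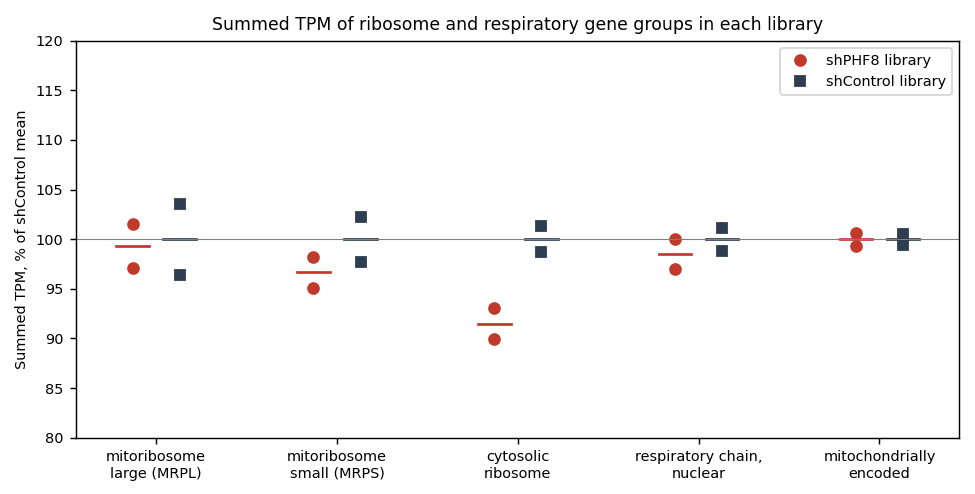
Summed TPM of 5 gene groups in each library as a percentage of the shControl mean, with circles for shPHF8 libraries, squares for shControl libraries and lines for group means (the axis does not start at 0). The mitoribosome sums overlap between groups, while both shPHF8 libraries lie below both shControl libraries for the cytosolic ribosome.

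No gene of the table passed an adjusted p of 0.05 (0%), and so no member did (limma, 10972 genes). At an unadjusted p under 0.05 there were 5 members higher in shPHF8 and 6 lower, 14.1% of the 78, against 22.0% of all genes tested (9.90% higher and 12.1% lower). The groups did not overlap for 17 members above and 22 below, 50% of the members, against 55.3% of all genes (26.0% above and 29.3% below). The median log2 fold change of the members was -0.03, with quartiles of -0.15 and 0.13, against -0.02 over all genes. Fold changes past 0.5 in size were seen for 4 members (5.13%), against 23.1% of all genes: MRPL36, MRPL43 and MRPL49 higher, and MRPL30 lower. The share was also low in 2 other sets, at 7.87% of cytosolic ribosomal protein genes and 7.87% of nuclear respiratory chain genes. Like the members, both sets have a median level above that of all genes (1430 and 174 TPM, against 29.5 TPM). Whether level bears on these shares was not tested. The median size of a member's fold change was 0.14, beside median differences within a group of 0.11 between shPHF8 libraries and 0.17 between shControl libraries. For all genes these were 0.25, 0.15 and 0.18. A fold change compares means of 2 libraries and a difference within a group compares single libraries, so these sizes cannot be set equal.

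Among large-subunit names 12 were above and 13 below without overlap (51.0%), with a median log2 fold change of -0.04. Among small-subunit names 5 were above and 9 below (48.3%), with a median of 0.00, and over all genes 55.3% did not overlap. At an unadjusted p under 0.05 there were 5 higher and 4 lower in the large subunit, and 0 higher and 2 lower in the small subunit (18.4% and 6.90%, against 22.0% of all genes). All 4 members past 0.5 in size carry large-subunit names (8.16% of the 49, against 23.1% of all genes). Of these, MRPL30 had overlapping groups, and the shControl libraries of MRPL43 differed by 2.12-fold. By structure, the 30 large-subunit proteins with a bacterial counterpart had 6 above and 8 below, and the 21 without one had 6 above and 6 below. In the small subunit the 16 proteins with a bacterial counterpart had 4 above and 4 below, and the 10 without one had 1 above and 4 below. MRPS18A and MRPS18B, paralogues of a bacterial protein that occupy other places, are counted here among those without a counterpart. Members are not replicates, so these counts carry no test of a difference between subunits or classes.

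**Figure D3:**
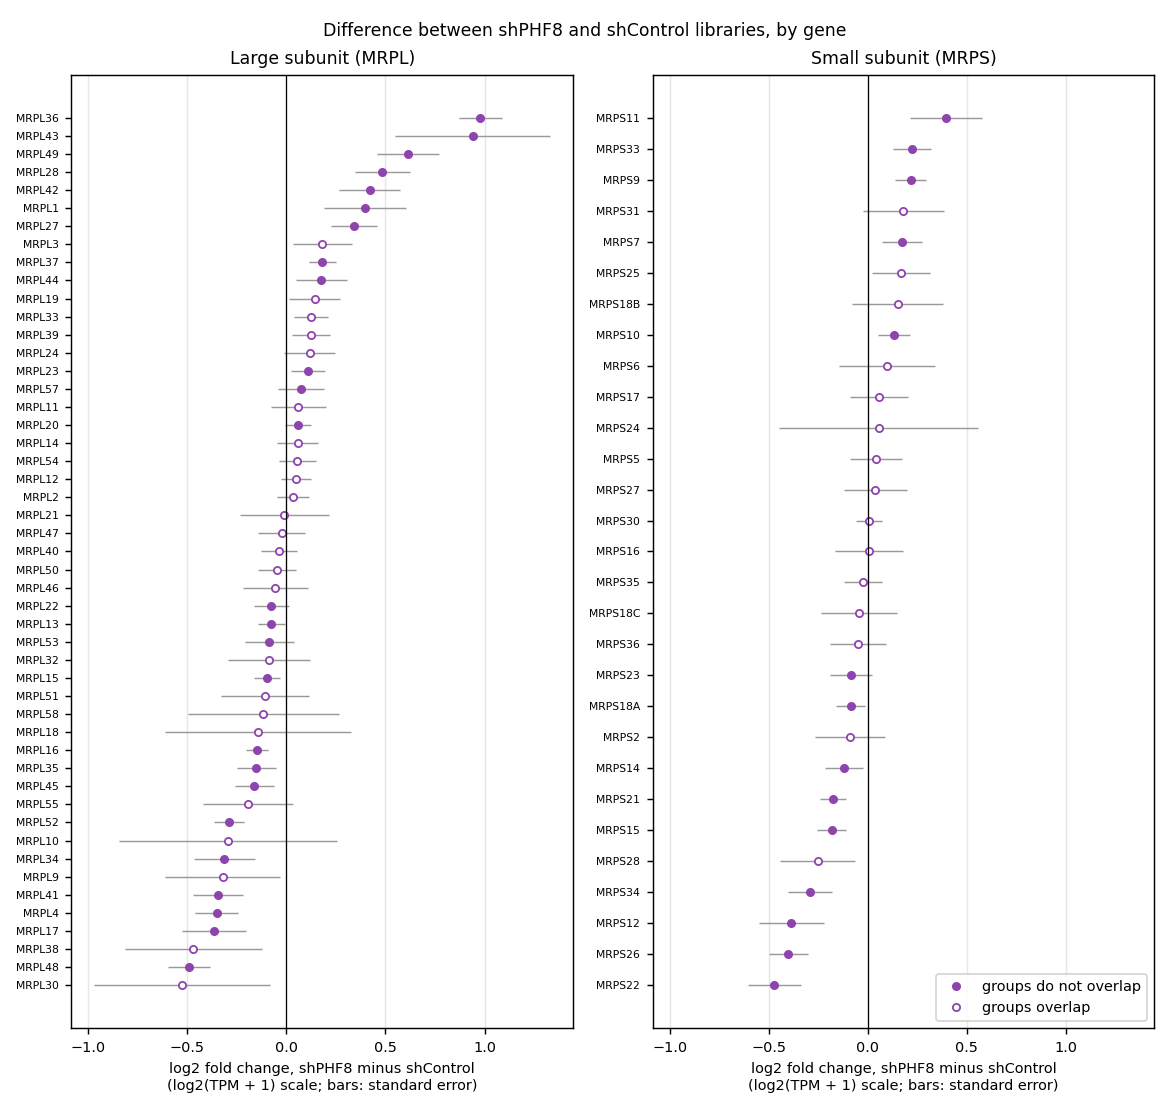
Log2 fold change of each member in shPHF8 relative to shControl, computed from log2(TPM + 1), with bars of 1 standard error. Filled points are the 39 members whose groups did not overlap and open points the other 39; MRPL36 has the highest value (0.98) and MRPL30 the lowest (-0.53), and most lie within 0.5 of 0.

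**Figure D4:**
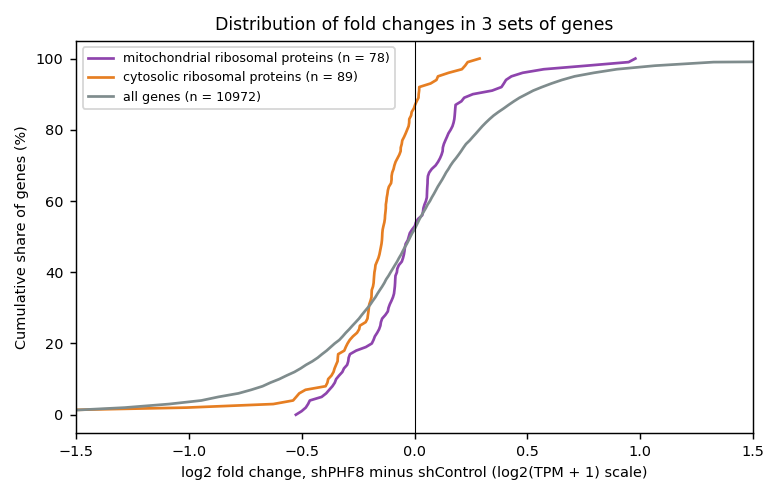
Cumulative share of genes by log2 fold change for the 78 members, 89 cytosolic ribosomal protein genes and 10972 genes tested; values beyond 1.5 in size lie outside the axis. The members' curve crosses its middle near 0 (median -0.03) and is steeper than that of all genes, while the cytosolic curve is centred at -0.14.

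MRPL36, a small zinc-binding protein of the large subunit with a bacterial counterpart, had the smallest p of all members. It had 117 and 109 TPM in shPHF8 libraries, against 60.8 and 53.2 TPM in shControl libraries. Every shPHF8 value exceeded every shControl value, and the log2 fold change was 0.98 ± 0.11 (SE, n = 2 a group, limma adjusted p = 0.0696). Its promoter window is the one printed above with the YY1-type match in the opposite orientation. No other protein-coding gene shares its exons, and it has no named pseudogene in the tables used.

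The other large-subunit genes higher in both shPHF8 libraries had larger adjusted p. MRPL49, a mitochondria-specific protein, had 25.6 and 24.2 TPM in shPHF8 libraries, against 17.6 and 14.4 TPM in shControl libraries (log2 fold change 0.61 ± 0.16, limma adjusted p = 0.147). MRPL49 shares exon bases with FAU, a cytosolic ribosomal protein gene, on the opposite strand, and strandedness is not given in the sources used here. MRPL28, with a bacterial counterpart, had 190 and 180 TPM in shPHF8 libraries, against 117 and 149 TPM in shControl libraries (0.48 ± 0.14, limma adjusted p = 0.169). When its highest transcript alone was taken, the log2 fold change of MRPL28 was -0.54, and its transcripts are given below. MRPL42, a mitochondria-specific protein, had 34.8 and 37.5 TPM in shPHF8 libraries, against 29.8 and 24.0 TPM in shControl libraries (0.42 ± 0.15). MRPL27, whose bacterial counterpart reaches the peptidyl transferase centre, had 86.9 and 101 TPM in shPHF8 libraries, against 70.3 and 77.3 TPM in shControl libraries (0.34 ± 0.12). For MRPL42, MRPL27 and the rest of the named members below, the limma adjusted p was at least 0.121.

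Among large-subunit genes lower in both shPHF8 libraries, MRPL48, a mitochondria-specific protein, had the smallest p. It had 52.0 and 52.6 TPM in shPHF8 libraries, against 78.7 and 69.7 TPM in shControl libraries (log2 fold change -0.49 ± 0.11, limma adjusted p = 0.121). MRPL52, also mitochondria-specific, had 98.2 and 96.5 TPM in shPHF8 libraries, against 119 and 119 TPM in shControl libraries (-0.29 ± 0.07). In MRPL52 the libraries of each group lay close together, while the shControl libraries of MRPL48 differed by 1.13-fold. MRPL4, whose bacterial counterpart lines the exit tunnel, had 109 and 129 TPM in shPHF8 libraries, against 153 and 150 TPM in shControl libraries (-0.35 ± 0.11). MRPL41, a mitochondria-specific protein, had 114 and 101 TPM in shPHF8 libraries, against 125 and 149 TPM in shControl libraries (-0.35 ± 0.13). MRPL16, the most abundant member, had a log2 fold change of -0.15 ± 0.06.

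In the small subunit, the members that stood higher had log2 fold changes of up to 0.39. MRPS9, with a bacterial counterpart, had 157 and 148 TPM in shPHF8 libraries, against 135 and 128 TPM in shControl libraries (log2 fold change 0.22 ± 0.08). MRPS33, a mitochondria-specific protein, had 54.3 and 52.0 TPM in shPHF8 libraries, against 45.5 and 45.3 TPM in shControl libraries (0.22 ± 0.09). MRPS11 had 14.7 and 14.6 TPM in shPHF8 libraries, against 12.3 and 9.67 TPM in shControl libraries (0.39 ± 0.18). The groups did not overlap in these 3 genes. MRPS7, whose bacterial counterpart starts assembly of the head of the small subunit, had 119 and 130 TPM in shPHF8 libraries, against 104 and 117 TPM in shControl libraries (0.17 ± 0.10). MRPS10, of bacterial descent, had 191 and 198 TPM in shPHF8 libraries, against 169 and 185 TPM in shControl libraries (0.13 ± 0.08). In both the gap between the groups was smaller than the distance between the shControl libraries.

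Small-subunit members that stood lower included mitochondria-specific proteins linked to human mitochondrial disease. MRPS26, a mitochondria-specific protein, had 46.5 and 48.6 TPM in shPHF8 libraries, against 65.3 and 61.1 TPM in shControl libraries (log2 fold change -0.40 ± 0.10). MRPS22, mutated in a combined respiratory chain deficiency, had 160 and 127 TPM in shPHF8 libraries, against 202 and 194 TPM in shControl libraries (-0.47 ± 0.13). Its exons overlap COPB2 on the opposite strand. MRPS34, mutated in some patients with Leigh syndrome, had 115 and 134 TPM in shPHF8 libraries, against 146 and 159 TPM in shControl libraries (-0.29 ± 0.11). MRPS21, of bacterial descent and with 8 named pseudogenes, had 201 and 201 TPM in shPHF8 libraries, against 222 and 232 TPM in shControl libraries (-0.18 ± 0.07). MRPS15, with a bacterial counterpart, had 216 and 214 TPM in shPHF8 libraries, against 235 and 254 TPM in shControl libraries (-0.18 ± 0.07). The groups stood apart in all 5, with differences of under 0.5 on the log2 scale.

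Some members varied more between libraries of a group than between groups. A difference over 1.5-fold within either group was seen for 11 members (14.1%), against 26.1% of all genes. MRPL10 had 40.7 and 117 TPM in shPHF8 libraries, against 72.4 and 99.8 TPM in shControl libraries. MRPL30 had 156 and 64.6 TPM in shPHF8 libraries, against 150 and 140 TPM in shControl libraries, so its place as the lowest fold change rests on 1 shPHF8 library. MRPS24 had 68.2 and 154 TPM in shPHF8 libraries, against 132 and 73.9 TPM in shControl libraries. MRPL18 had 243 and 140 TPM in shPHF8 libraries, against 139 and 298 TPM in shControl libraries. The groups overlapped in all 4 genes. Of the 78 members, 34 have named pseudogenes and 34 share exon bases with another protein-coding gene. MRPL10 and MRPL18 have neither, and the part of shared reads in the spread of the others was not tested. These 4 genes were picked after their values were seen.

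The members had 235 transcripts in the table, all protein-coding in GENCODE release 29, with 1 transcript for 21 members and several for 57. The leading transcript of a member with several held a median of 77.1% of its TPM. In the fit over 30266 transcripts, 1 passed an adjusted p of 0.05 (0.00330%), and it was not one of the 228 member transcripts tested. At an unadjusted p under 0.05 there were 6 member transcripts higher in shPHF8 and 10 lower, 7.02%, against 10.3% of all transcripts (4.91% higher and 5.38% lower). The groups did not overlap for 38 above and 50 below (38.6%), against 43.2% of all transcripts. Fold changes past 0.5 in size were seen for 77 member transcripts (33.8%), against 43.6% of all transcripts. Each share lay below that of the whole table, as it did for genes.

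The member transcript with the smallest p was MRPL28-008. It had 102 and 93.2 TPM in shPHF8 libraries, against 13.6 and 8.79 TPM in shControl libraries, a log2 fold change of 3.04 ± 0.26 (SE, limma adjusted p = 0.122). The leading transcript in shControl, MRPL28-006, had 79.5 and 53.7 TPM in shPHF8 libraries, against 95.1 and 95.4 TPM in shControl libraries. MRPL28-008 held 52.7% of the gene's TPM in shPHF8 and 8.75% in shControl, while MRPL28-006 held 35.8% and 72.6%. In GENCODE both have 6 exons and the same coding sequence of 768 bases, and their lengths are 865 and 1098 bases. The start of MRPL28-008 lies 18 bases downstream, and where the rest of the difference in length lies was not examined. The gene shares exon bases with TMEM8A on the same strand. How reads shared between the 2 transcripts were divided is not given in the sources used here.

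MRPL36 showed a transcript pattern of its own. MRPL36-001 had 98.6 and 96.8 TPM in shPHF8 libraries, against 31.0 and 24.1 TPM in shControl libraries (log2 fold change 1.80 ± 0.17, limma adjusted p = 0.152). MRPL36-002 had 10.6 and 4.94 TPM in shPHF8 libraries, against 16.8 and 14.2 TPM in shControl libraries. MRPL36-003 had 8.06 and 7.45 TPM in shPHF8 libraries, against 12.99 and 14.9 TPM in shControl libraries. The gene's higher total therefore lay in MRPL36-001, which held 86.4% of its TPM in shPHF8 and 48.1% in shControl. All 3 encode the same protein, from a coding sequence of 309 bases.

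**Figure D5:**
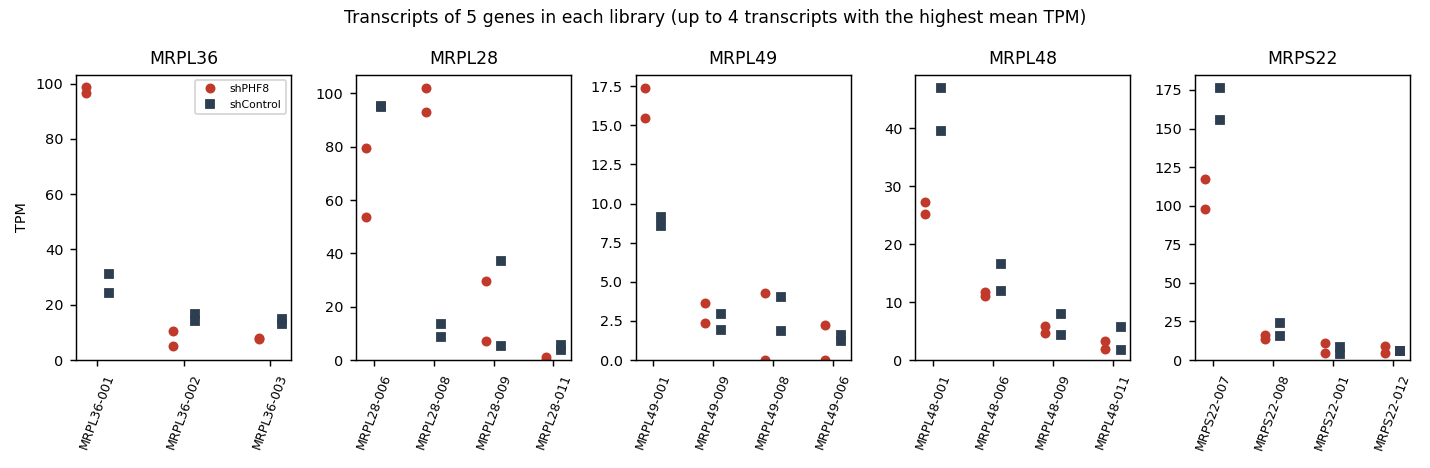
TPM of up to 4 transcripts of 5 members in each library, with circles for shPHF8 and squares for shControl, on a separate linear axis for each gene. MRPL36-001 and MRPL28-008 lie far higher in both shPHF8 libraries, while MRPL48-001 and MRPS22-007 lie lower.

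Further transcripts of the smallest p followed their gene totals in most cases. MRPL49-001 had 15.5 and 17.4 TPM in shPHF8 libraries, against 8.55 and 9.12 TPM in shControl libraries (log2 fold change 0.82 ± 0.20). MRPS33-008 was rare, at 2.80 and 2.84 TPM in shPHF8 libraries, against a listed 0 and 0.347 TPM in shControl libraries. MRPL37-003 was lower, at 1.89 and 1.01 TPM in shPHF8 libraries, against 10.3 and 7.21 TPM in shControl libraries, although the total of MRPL37 stood higher. Its groups did not overlap, and it held 0.534% of the gene's TPM in shPHF8 and 3.63% in shControl. The 3 transcripts lower in shPHF8 beside it are the main or second transcripts of their genes. MRPS22-007 had 117 and 97.6 TPM in shPHF8 libraries, against 176 and 155 TPM in shControl libraries (-0.62 ± 0.14). MRPL48-001 had 27.3 and 25.3 TPM in shPHF8 libraries, against 47.0 and 39.6 TPM in shControl libraries (-0.70 ± 0.16). MRPS21-002 had 55.1 and 54.5 TPM in shPHF8 libraries, against 72.9 and 77.7 TPM in shControl libraries (-0.45 ± 0.11). These last 3 were lower together with their genes.

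By mean TPM, the leading transcript differed between the groups in 9 of the 57 members with several. The same share was not computed over all genes, so this one cannot be called high or low. Of these 9, the shares of both transcripts stood apart between the groups in MRPL28 and MRPL42, and in the others at least 1 overlapped. In MRPL42, MRPL42-005 had 12.1 and 17.3 TPM in shPHF8 libraries, against 7.91 and 1.72 TPM in shControl libraries. MRPL42-001, the leading transcript in shControl, had 11.1 and 11.3 TPM in shPHF8 libraries, against 10.7 and 11.6 TPM in shControl libraries. The higher total of MRPL42 thus lay in MRPL42-005, and with the highest transcript alone its log2 fold change was 0.01. In MRPS24 the values crossed, and MRPS24-001 held the larger mean share in both groups. MRPS24-004 had 11.3 and 110 TPM in shPHF8 libraries, against 88.5 and 7.18 TPM in shControl libraries. Those libraries differ more within each group than between groups.

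Other parts of the mitochondrial translation system were described from lists of known genes. Of the mitoribosome subunits with other names, 5 were tested, among them PTCD3 and CHCHD1 of the small subunit and GADD45GIP1 of the large subunit. All 5 had overlapping groups (0% without overlap, against 55.3% of all genes), a share that rests on few genes. PTCD3 had 64.2 and 67.9 TPM in shPHF8 libraries, against 60.2 and 65.3 TPM in shControl libraries. GADD45GIP1 had 76.4 and 71.3 TPM in shPHF8 libraries, against 72.8 and 86.7 TPM in shControl libraries. Neither gene stood apart between the groups. AURKAIP1, of the small subunit, had 223 and 207 TPM in shPHF8 libraries, against 215 and 247 TPM in shControl libraries. CHCHD1 had 167 and 168 TPM in shPHF8 libraries, against 163 and 171 TPM in shControl libraries.

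Of 25 tested factors for assembly of the mitoribosome and modification of its RNA, 0 passed the adjusted p, 4 were above and 7 below without overlap (44.0%, against 55.3% of all genes), and at an unadjusted p under 0.05 there were 1 higher and 5 lower (24.0%, against 22.0%). The median log2 fold change was -0.10. MPV17L2, an inner-membrane protein needed for mitoribosome assembly, had 7.63 and 6.0 TPM in shPHF8 libraries, against 32.1 and 44.7 TPM in shControl libraries (log2 fold change -2.32 ± 0.23, limma adjusted p = 0.0659). MRM2, a methyltransferase of the large ribosomal RNA, had 0.0712 and 0.113 TPM in shPHF8 libraries, against 6.34 and 5.33 TPM in shControl libraries (-2.64 ± 0.27, limma adjusted p = 0.0677). Both stood apart by more than any member. NGRN had 18.7 and 17.4 TPM in shPHF8 libraries, against 12.4 and 12.7 TPM in shControl libraries. NSUN4, which methylates the small ribosomal RNA and takes part in joining the subunits, had 17.6 and 27.3 TPM in shPHF8 libraries, against 11.2 and 15.6 TPM in shControl libraries.

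Of 15 mitochondrial translation factors, 0 passed the adjusted p, 4 were above and 5 below (60.0%, against 55.3% of all genes), and 2 were higher and 3 lower at an unadjusted p under 0.05 (33.3%, against 22.0%). OXA1L, the insertase that receives new proteins from the mitoribosome at the inner membrane, had 85.0 and 89.6 TPM in shPHF8 libraries, against 34.1 and 37.4 TPM in shControl libraries (log2 fold change 1.27 ± 0.10, limma adjusted p = 0.0572). GFM2, which recycles ribosomes, had 72.3 and 80.9 TPM in shPHF8 libraries, against 62.7 and 46.2 TPM in shControl libraries. MTFMT, which formylates the initiator methionine, had 11.6 and 10.8 TPM in shPHF8 libraries, against 15.8 and 15.3 TPM in shControl libraries. These 3 genes did not overlap between groups, with OXA1L furthest apart. GUF1, an elongation factor, had 57.2 and 57.3 TPM in shPHF8 libraries, against 71.7 and 66.9 TPM in shControl libraries.

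Genes for mitochondrial RNA synthesis and stability had 4 above and 3 below among 13 tested (53.8%, against 55.3% of all genes), with 0 at an unadjusted p under 0.05 by limma. LRPPRC, which stabilises mitochondrial messenger RNAs, had 330 and 309 TPM in shPHF8 libraries, against 283 and 289 TPM in shControl libraries. PNPT1, an exoribonuclease of mitochondria, had 69.2 and 68.1 TPM in shPHF8 libraries, against 76.1 and 84.0 TPM in shControl libraries. Neither gene overlapped between groups. HSD17B10, a subunit of mitochondrial RNase P, had 230 and 218 TPM in shPHF8 libraries, against 194 and 208 TPM in shControl libraries. TRMT10C, another subunit of that enzyme, had 80.9 and 82.9 TPM in shPHF8 libraries, against 89.7 and 90.9 TPM in shControl libraries. The 2 subunits stood on opposite sides, each by under 0.2 on the log2 scale.

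Of 9 tested nuclear regulators of mitochondrial genes, 1 was above and 3 below (44.4%, against 55.3% of all genes). YY1, the factor for which the motif above is named, had 115 and 96.0 TPM in shPHF8 libraries, against 81.8 and 76.8 TPM in shControl libraries (log2 fold change 0.41 ± 0.12, limma adjusted p = 0.187). GABPA, an ETS factor, had 46.7 and 45.5 TPM in shPHF8 libraries, against 55.6 and 49.8 TPM in shControl libraries. YY1 thus stood higher and GABPA lower without overlap. PPARGC1B, a coactivator, had 14.1 and 12.4 TPM in shPHF8 libraries, against 16.4 and 16.7 TPM in shControl libraries. GABPB2, a partner of GABPA, had 13.3 and 13.2 TPM in shPHF8 libraries, against 14.8 and 9.86 TPM in shControl libraries, with overlap. Whether these factors bear on the members was not tested.

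The cytosolic ribosome was set beside the mitochondrial one. Of 89 cytosolic ribosomal protein genes, 5 were above and 61 below (74.2%, against 55.3% of all genes, with 26.0% above and 29.3% below). At an unadjusted p under 0.05 by limma, 1 was higher and 35 were lower (40.4%, against 22.0% of all genes), and 0 passed the adjusted p. Their sum was 131181 and 126691 TPM in shPHF8 libraries, against 139079 and 142750 TPM in shControl libraries, and the ratio of 0.915 compares with 0.984 for the 78 mitochondrial genes. The median log2 fold change was -0.14 in the cytosolic set and -0.03 in the mitochondrial one. The difference between the sets was not tested. Of the genes with the smallest p, RPL9 had 1968 and 1888 TPM in shPHF8 libraries, against 2459 and 2417 TPM in shControl libraries, and RPL35A had 1130 and 1164 TPM, against 1435 and 1471 TPM in shControl libraries. RPS24 stood on the other side, with 4765 and 4683 TPM in shPHF8 libraries, against 3843 and 4230 TPM in shControl libraries. So did RPL26L1, with 139 and 152 TPM in shPHF8 libraries, against 119 and 130 TPM in shControl libraries.

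The 13 mitochondrially encoded genes summed to 133379 and 135214 TPM in shPHF8 libraries, against 133551 and 135084 TPM in shControl libraries, a ratio of 1.00. Single genes stood apart in both directions, with 5 above and 6 below (84.6%, against 55.3% of all genes). At an unadjusted p under 0.05 there were 3 higher and 2 lower (38.5%, against 22.0%), and 0 at the adjusted p. Within them MT-ND6, a subunit of complex I, had 3692 and 3711 TPM in shPHF8 libraries, against 4869 and 4847 TPM in shControl libraries (log2 fold change -0.39 ± 0.03, limma adjusted p = 0.0573). MT-CO3, a cytochrome oxidase subunit, had 19325 and 19412 TPM in shPHF8 libraries, against 18079 and 17506 TPM in shControl libraries. Both stood apart between groups, in opposite directions. MT-CYB, of complex III, had 7439 and 7547 TPM in shPHF8 libraries, against 6876 and 6819 TPM in shControl libraries. MT-ATP8, of the ATP synthase, had 19311 and 19024 TPM in shPHF8 libraries, against 20685 and 21224 TPM in shControl libraries. The 89 nuclear respiratory chain genes were taken by the beginnings of their names, a rule that can also admit assembly factors. They had 14 above and 20 below (38.2%, against 55.3% of all genes), and their summed ratio was 0.985. Among these, the complex I subunit gene NDUFA10 stood higher in both shPHF8 libraries, with a log2 fold change of 0.58 ± 0.11. NDUFC2 and NDUFB10, also of complex I, stood lower, with -0.54 ± 0.10 and -0.28 ± 0.08.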

How the data were processed

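RNA was sequenced from 2 shPHF8 and 2 shControl libraries of K562. Per the file headers, the deposited table gives TPM for each transcript in each library. Each column sums to 1000000 over 32551 transcripts. A further 4 per-sample columns carry no unit and were not used. Per the submitters' processing notes, HISAT2 2.0.4, StringTie 1.2.3 and hg19 were used; the annotation, strandedness and RNA selection are not given in the sources. TPM keep no read number, so depth and counting error are unknown, and as shares they move with other genes.

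TPM were summed per gene name and tested as log2(TPM + 1), for the 10972 genes whose mean reached 1 TPM, with limma 3.58.1 in R 4.3.3 (empirical Bayes with a trend, two-sided, Benjamini-Hochberg over all genes). Fold changes on this scale understate those of low genes. The fit had 2 residual degrees of freedom and a prior worth 2.16 more. The procedure was tested on simulated data in which the planted changes were larger than that of any member. That test does not show whether changes of the members' size would be called. Exact permutation of 2 against 2 libraries cannot go below 0.333, so no such p is given. Transcripts were fitted likewise. Library numbers did not pair the samples (correlation of deviations -0.03 over all genes).

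Named members were the 5 smallest p in each direction per subunit, the 4 largest and 3 smallest sums, the members whose place by structure differs from their name and the MRPS18 paralogues; of each list, the 2 smallest p in each direction; and the 4 smallest p among member transcripts in each direction. Others are marked as picked after their values were seen. Some genes that these rules or the marker lists name are not reported here. The members, lists, markers and motifs were chosen with earlier results of these data known; the motifs, subunit places and roles come from general knowledge. GENCODE release 29 gave transcript models by identifier and exon overlap between genes, and RefSeq (GRCh38.p14) gave promoters by symbol. Promoters on chromosome 8 are not printed.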

Additional observations from a re-analysis of the deposited data

How the results depend on the processing

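No member passed the adjusted p under any of 12 alternatives (other scaling, quantile normalization, pseudocount, filters, no trend, a replicate block, the highest transcript alone, and each library left out). Over all genes, 37 were called with quantile normalization and 21 with the highest transcript alone, against 0. Transcripts called were 4 with quantile normalization, 4 with a mean TPM minimum of 5, and 0 with no minimum, no trend, a replicate block or any library left out, against 1. The library numbers did not pair the samples; with the replicate block 0 genes passed the adjusted p, and 1949 had an unadjusted p under 0.05, against 2414. Among named members the block took the unadjusted p of MRPL41 (0.0847) and MRPL42 (0.0806) over 0.05 and that of MRPS34 (0.0431) under it. Leaving out 1 library at a time gave 23 to 33 members above and 26 to 36 below; 3 libraries separate by chance more often than 4. The large-subunit median then ranged between -0.0696 and 0.0670 and the small-subunit median between -0.1073 and 0.0301, so neither sign is stable. The difference in large-to-small ratio, 0.0510, was -0.0243 with the highest transcript alone, -0.02 without shPHF8 replicate 1 and 0.1219 without shPHF8 replicate 2. Among 20 named members under 12 alternatives, 239 of 240 fold changes kept their direction, but most could not have changed it. The filters, the trend and the block leave a fold change as it was. The groups of all 20 did not overlap, so another pseudocount or leaving out a library cannot reverse them. Only other scaling, quantile normalization and the highest transcript alone could. MRPL28 reversed to -0.54 with the highest transcript alone, where the groups lead with different transcripts. The scaling alternatives moved the median of all genes by under 0.1. Unknown depth, 2 libraries a group and the division of reads between isoforms, pseudogenes and overlapping genes limit every value.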
